A study of Mus musculus with 6 samples.

Results

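The circadian clock genes described here are *Arntl*, *Clock*, *Npas2*, *Per1*, *Per2*, *Per3*, *Cry1*, *Nr1d1*, *Nr1d2* and *Dbp*. They were chosen by name, and all 10 were found by their Ensembl identifiers among the 34866 genes of the deposited table. All 10 also passed the filter on low counts, which left 16536 genes. RNA-seq was performed on intestinal adenomas of C57BL/6J mice aged between 100 and 120 days, with 3 libraries from Apc1322T/+ mice and 3 from ApcMin/+ mice. ApcMin essentially abolishes the function of the Apc tumour suppressor, while Apc1322T encodes a truncated protein that keeps part of it. Both are heterozygous germline mutations, so that the remaining cells of these mice carry them too, and no other allele or treatment is given for these groups. Typically, several RNA extractions from a single mouse were pooled for each sample, so that a library stands for the adenomas of 1 mouse. Normal tissue was not analysed here. The time of day at which the adenomas were taken is not given in the sources used here.

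The mammalian clock is a loop of transcription factors that runs in nearly every cell with a period of about a day. *Arntl* (also called Bmal1) encodes the activator that pairs with the *Clock* protein or with its close relative *Npas2*, and these dimers bind E-boxes near their target genes. The targets include *Per1*, *Per2*, *Per3* and *Cry1*, whose proteins return to the nucleus and block the activators, and *Nr1d1* and *Nr1d2*, which encode the nuclear receptors REV-ERBα and REV-ERBβ and repress *Arntl* and *Npas2*. *Dbp* encodes a factor that binds D-boxes and carries the rhythm to output genes. In many tissues *Arntl* and *Npas2* peak at about the opposite time of day from *Dbp* and *Nr1d1*, and the *Per* genes follow *Dbp* by some hours. The intestinal epithelium has a clock of its own, which is also set by feeding, and nutrient transporters are among its outputs.

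The DNA elements through which these genes are wired to each other were looked for in their promoters, and the windows that hold a match are shown so that the letters can be read beside the values. The windows taken from RefSeq (GRCm38.p6) covered 9 of the 10 members (13 start sites), and *Per2* had none. Each runs from 250 bases before the start of transcription to 50 bases after it. The motifs searched on both strands were the E-box CACGTG, its variant CACGTT, the D-box TTANGTAA, the REV-ERB and ROR elements TAGGTCA and TGGGTCA, and the cAMP response element TGACGTCA. Matches are in capitals below, in the 250 bases before the start, written 5′ to 3′ along the strand of the gene. The matches shown do not overlap each other.
*Per1* (chr11:69098699-69098948, plus strand, E-box from -166 to -161): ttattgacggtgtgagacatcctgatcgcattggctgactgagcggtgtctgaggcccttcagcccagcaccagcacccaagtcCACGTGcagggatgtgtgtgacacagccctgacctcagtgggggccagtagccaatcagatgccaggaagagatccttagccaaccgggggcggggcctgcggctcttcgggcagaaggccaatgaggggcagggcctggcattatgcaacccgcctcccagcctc
*Cry1* (chr10:85185055-85185304, minus strand, E-box variant from -79 to -74 on the opposite strand and E-box from -60 to -55): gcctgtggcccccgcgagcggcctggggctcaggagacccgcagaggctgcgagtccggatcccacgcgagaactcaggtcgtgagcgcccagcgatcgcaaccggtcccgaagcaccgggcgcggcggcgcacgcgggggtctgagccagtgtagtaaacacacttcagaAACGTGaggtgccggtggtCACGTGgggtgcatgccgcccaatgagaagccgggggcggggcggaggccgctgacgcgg
*Per3* (chr4:151044666-151044915, minus strand, D-boxes from -205 to -198 and from -158 to -151): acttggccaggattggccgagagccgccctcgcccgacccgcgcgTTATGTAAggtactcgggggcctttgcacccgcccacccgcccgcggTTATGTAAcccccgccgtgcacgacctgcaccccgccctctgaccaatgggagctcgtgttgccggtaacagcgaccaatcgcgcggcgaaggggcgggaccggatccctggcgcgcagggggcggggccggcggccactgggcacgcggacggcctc
*Nr1d1* (chr11:98775378-98775627, minus strand, E-box variant from -28 to -23 on the opposite strand): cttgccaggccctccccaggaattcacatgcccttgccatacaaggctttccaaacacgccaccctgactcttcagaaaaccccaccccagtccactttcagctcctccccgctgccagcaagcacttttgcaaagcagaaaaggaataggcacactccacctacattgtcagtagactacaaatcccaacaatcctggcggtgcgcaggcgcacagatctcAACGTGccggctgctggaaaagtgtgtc
*Arntl* (chr7:113207530-113207558, plus strand, REV-ERB and ROR element from base 31 to base 37 after the second annotated start): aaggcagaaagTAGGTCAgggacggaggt
The E-box was found in 2 of the 9 members (*Per1*, at 1 of its 2 start sites, and *Cry1*). That was 2 of their 13 windows, beside 7.15% of all 32851 windows of the same length. The D-box was found only in *Per3* among the 9 members, in 1 of the 13 windows, beside 2.32% of all windows. The REV-ERB and ROR element TAGGTCA was found only in *Arntl* among them, at 1 of its 2 start sites. That was 1 of the 13 windows, beside 2.61% of all windows. The variant CACGTT was present in *Cry1* and *Nr1d1*, in 2 of the 13 windows, beside 4.68% of all windows. No match to any of these letters lay in the windows of *Clock*, *Npas2*, *Nr1d2* and *Dbp*, and bases outside the windows were not searched. For *Nr1d1*, *Nr1d2*, *Dbp* and the second start of *Arntl*, bases just after the start were not found in a GENCODE transcript of the gene. TGGGTCA and TGACGTCA matched none of the 9 members, and 3.98% and 1.79% of all windows.

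Of the libraries, ApcMin replicate 1 stood apart in holding transcripts of pancreatic acinar cells. *Cela2a*, *Pnlip*, *Cpa1* and *Prss2*, which encode digestive enzymes, had between 459 and 815 estimated counts there and at most 4 in any other library. Without this library the log2 fold change was -0.61 for *Npas2*, -0.95 for *Nr1d1*, 1.05 for *Per1*, 0.80 for *Per3* and -0.55 for *Dbp*, and no clock gene passed the test. Apc1322T replicate 1 and ApcMin replicate 3 also deviated together, with a correlation of 0.33 between their deviations from their group means over all tested genes. The same measure was 0.28 for Apc1322T replicate 3 with ApcMin replicate 2, and -0.36 for Apc1322T replicate 1 with ApcMin replicate 2. Because deviations within a genotype sum to 0, these values depend on each other.

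The RNA levels of the clock genes were first compared with each other, as CPM (estimated counts scaled by the normalised library total) per kilobase of annotated exon. These are levels, averaged over the 6 libraries and on a linear scale, and they depend on the exon length taken for each gene. *Nr1d1* was the highest, at 14.9 (range 8.27 to 25.6). It was followed by *Nr1d2* at 8.78, *Dbp* at 6.59, *Cry1* at 4.99, *Clock* at 4.43, *Per1* at 4.23, *Npas2* at 3.41, *Per2* at 2.33, *Arntl* at 1.39 and *Per3* at 1.18. The ranges of each gene and the next in this order overlapped, so that no neighbours were parted beyond their spread. *Clock* (4.13 to 4.88) and *Arntl* (1.27 to 1.69) did not overlap, although their proteins work as a dimer. The smallest of the estimated counts of any member in any library was 190 (*Per3*), and the largest 2250 (*Clock*), against totals of between 23132461 and 33518324 estimated counts per library. Intervals from counting alone would therefore be narrow, and the spread between libraries sets the precision.

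No clock gene passed the test between the genotypes. With the quasi-likelihood method of edgeR and p-values adjusted by Benjamini-Hochberg over the 16536 genes tested, 0 of the 10 were below an adjusted p of 0.01, beside 0.0% of all genes. At an adjusted p below 0.05 there was again none, beside 0.00605% of all genes. An unadjusted p below 0.05 was found for 1 of the 10, *Npas2*, beside 15.1% of all genes, of which 7.49% were higher and 7.60% lower in ApcMin adenomas. DESeq2's Wald test called 0 of the 10 at an adjusted p below 0.01 (1.12% of all genes) and 0 below 0.05 (2.72%). By sign alone, 4 of the 10 were higher and 6 lower in ApcMin adenomas, and their median log2 fold change was -0.039, beside 0.017 for all tested genes. For 5 of the 10 the log2 fold change was smaller than its standard error. In what follows, a positive log2 fold change denotes a higher level in ApcMin adenomas, and 2 prior counts were added before CPM was put on the log2 scale.

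**Figure D1:**
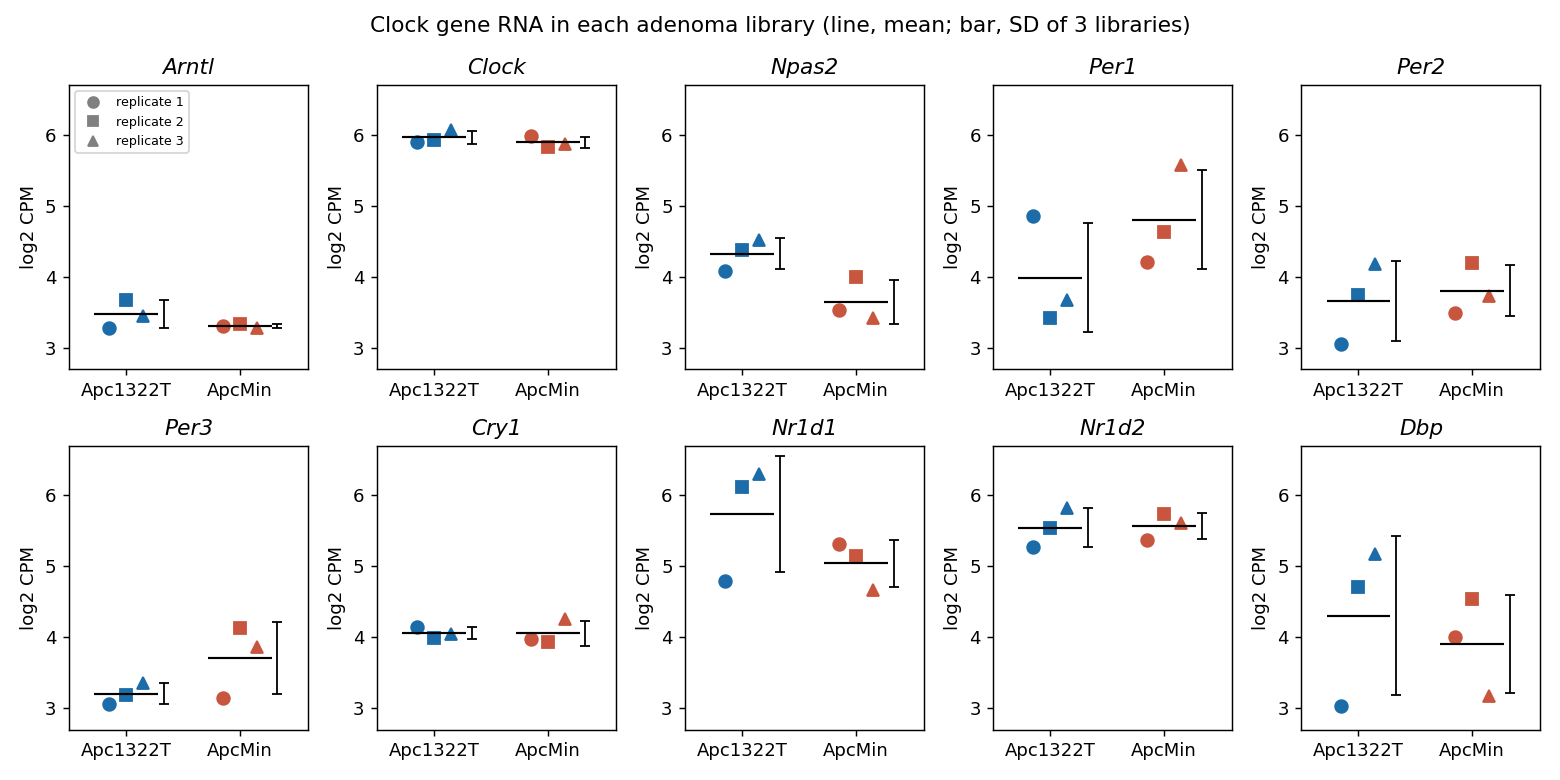
Log2 CPM of the 10 clock genes (one panel each, vertical axis) in the 3 Apc1322T (blue) and 3 ApcMin (red) adenoma libraries; symbols give the replicate, horizontal lines the mean and bars the SD of 3 libraries. The genotypes overlap for every gene except *Npas2*. *Dbp* and *Per1* spread widely within each genotype, and *Nr1d1* within Apc1322T.

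Among the activators, *Npas2* stood lower in ApcMin adenomas without overlap, while *Arntl* and *Clock* hardly varied. *Npas2* lies on chromosome 1 (39193731 to 39363236 of GRCm38, as are the positions that follow). It reached a log2 CPM of 4.08, 4.37 and 4.51 in Apc1322T replicates 1, 2 and 3 and of 3.53, 3.99 and 3.41 in ApcMin replicates 1, 2 and 3. The lowest Apc1322T library was thus close to the highest ApcMin library. Its log2 fold change was -0.67 (standard error 0.19), or 0.628-fold, with an adjusted p of 0.279 in edgeR's test. The two-sided exact permutation test over the 20 assignments of the libraries gave p = 0.10, which is the lowest value this design can reach. Such a lack of overlap was found for 21.0% of all tested genes, and for 1 of the 10 clock genes. The decrease was between 0.56 and 0.86 on the log2 scale when single libraries were left out. The adjusted p of *Npas2* over these 6 fits of edgeR was between 0.0936 (without Apc1322T replicate 1) and 0.692. With all 6 libraries, DESeq2's Wald test gave *Npas2* a lower adjusted p than edgeR, 0.0715, at a log2 fold change of -0.69.

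*Arntl* lies on chromosome 7 (113207465 to 113314126). It had a log2 CPM of 3.28, 3.67 and 3.45 in the Apc1322T libraries and of 3.30, 3.33 and 3.27 in the ApcMin libraries. The ApcMin libraries were nearly equal, and Apc1322T replicate 1 was level with them, whereas Apc1322T replicates 2 and 3 stood above. This left a log2 fold change of -0.18 with a standard error of 0.15 (edgeR, adjusted p = 0.565). *Clock*, on chromosome 5 (76209868 to 76304792), was the steadiest of the 10 genes, with 5.90, 5.92 and 6.07 in Apc1322T and 5.98, 5.83 and 5.87 in ApcMin libraries on the log2 CPM scale. ApcMin adenomas differed by a log2 fold change of -0.074 (standard error 0.087). Only 9.86% of all tested genes had a smaller SD within genotypes than *Clock*.

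Of the Period and Cryptochrome genes, which encode the repressors of the loop, *Per1* varied most. *Per1* is also induced quickly by glucocorticoids and by cAMP signals, and lies on chromosome 11 (69095217 to 69109960). Its log2 CPM was 4.86, 3.42 and 3.67 in Apc1322T replicates 1, 2 and 3, and 4.21, 4.63 and 5.58 in ApcMin replicates 1, 2 and 3. Apc1322T replicate 1 was higher than 2 of the 3 ApcMin libraries, so that the genotypes overlapped broadly. *Per1* had a log2 fold change of 0.79 with a standard error of 0.50 (edgeR, adjusted p = 0.470), and leaving out single libraries gave between 0.30 and 1.38. The lower of these values was obtained without ApcMin replicate 3 and the higher without Apc1322T replicate 1. The highest and the lowest library differed 4.46-fold, a range larger than that of 91.0% of all tested genes.

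*Per2*, on chromosome 1 (91415982 to 91459324), did not follow *Per1*. Its log2 CPM was lowest in Apc1322T replicate 1, at 3.05, where *Per1* was high. It was 3.74 and 4.18 in the other Apc1322T libraries and 3.49, 4.19 and 3.73 in ApcMin replicates 1, 2 and 3. The log2 fold change of 0.10 was within its standard error of 0.32. *Per3*, on chromosome 4 (151003652 to 151044665), was measured at a log2 CPM of 3.06, 3.19 and 3.36 in Apc1322T and of 3.14, 4.13 and 3.86 in ApcMin libraries. ApcMin replicates 2 and 3 stood above the other 4 libraries, and ApcMin replicate 1 lay among the Apc1322T libraries. For *Per3* the log2 fold change of 0.56 exceeded its standard error of 0.26, with an adjusted p of 0.358 in edgeR's test. Leaving out single libraries gave between 0.34 (without ApcMin replicate 2) and 0.80 (without ApcMin replicate 1) for *Per3*. *Cry1*, on chromosome 10 (85131700 to 85185064), was measured at a log2 CPM of 4.15, 3.99 and 4.05 in Apc1322T and of 3.97, 3.93 and 4.26 in ApcMin libraries. The genotypes had nearly the same mean, 4.06 ± 0.080 (SD, n = 3) in Apc1322T and 4.06 ± 0.18 (SD, n = 3) in ApcMin adenomas.

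The REV-ERB genes differed from each other in spread. *Nr1d1*, on chromosome 11 (98767932 to 98775333), was measured at a log2 CPM of 4.80, 6.11 and 6.30 in Apc1322T replicates 1, 2 and 3 and of 5.31, 5.14 and 4.67 in ApcMin replicates 1, 2 and 3. Apc1322T replicates 2 and 3 stood above all 3 ApcMin libraries, while Apc1322T replicate 1 fell among them. This gave a log2 fold change of -0.81 with a standard error of 0.40, or 0.571-fold (edgeR, adjusted p = 0.377). Without Apc1322T replicate 1 it was -1.14 with a standard error of 0.20 (edgeR, adjusted p = 0.0620), and without Apc1322T replicate 3 it was -0.54 (edgeR, adjusted p = 0.667). Over all tested genes, 205 had an adjusted p below 0.05 in edgeR's fit without Apc1322T replicate 1, against 1 with all 6 libraries. At the 3′ end, 263 bases of *Nr1d1* exon (8.55%) lie opposite an exon of *Thra*, which encodes a thyroid hormone receptor. *Thra* had 943, 944 and 1137 estimated counts in the Apc1322T libraries and 1170, 953 and 1163 in the ApcMin libraries. The kit keeps the strand, but the strand setting of the quantification is not given in the sources used here. *Nr1d2*, on chromosome 14 (18204054 to 18239127), was measured at a log2 CPM of 5.28, 5.54 and 5.82 in Apc1322T and of 5.37, 5.73 and 5.61 in ApcMin libraries. Its libraries spread 1.46-fold, against 3.09-fold for *Nr1d1*, and its log2 fold change was 0.015 (standard error 0.16).

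*Dbp*, the D-box output gene, showed the widest spread within the genotypes of the 10 genes. It lies on chromosome 7 (45705088 to 45710203) and had a log2 CPM of 3.04, 4.71 and 5.17 in Apc1322T replicates 1, 2 and 3 and of 4.01, 4.54 and 3.17 in ApcMin replicates 1, 2 and 3. These values correspond to 222, 551 and 821 estimated counts in Apc1322T and to 573, 591 and 282 in ApcMin libraries. The lowest library of each genotype was thus far below the other two, and the 2 lowest libraries were nearly level with each other. *Dbp* had a log2 fold change of -0.55 with a standard error of 0.58 (edgeR, adjusted p = 0.660), and between -0.95 (without Apc1322T replicate 1) and -0.098 (without Apc1322T replicate 3) when single libraries were left out. Within Apc1322T adenomas *Dbp* spread 4.38-fold and within ApcMin adenomas 2.59-fold. The SD within genotypes was larger than that of 94.5% of all tested genes. *Dbp* shares 539 bases of exon (18.0%) with *Sphk2*, a sphingosine kinase gene on the opposite strand. *Sphk2* had 1562, 1847 and 1896 estimated counts in the Apc1322T libraries and 2249, 1496 and 1512 in the ApcMin libraries.

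**Figure D2:**
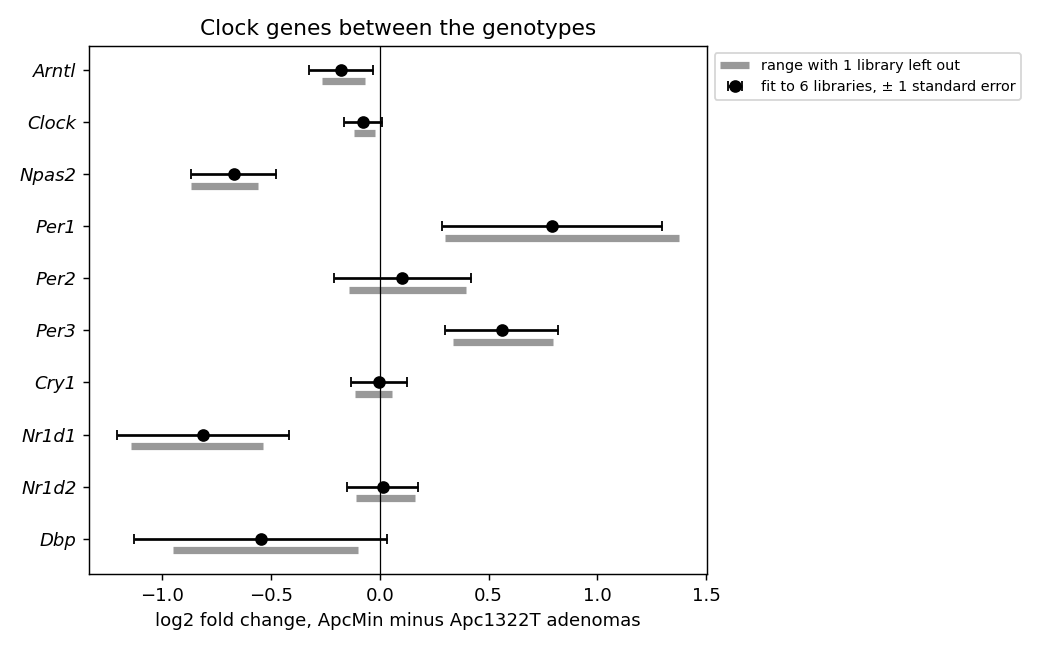
Log2 fold change of each clock gene between ApcMin and Apc1322T adenomas (horizontal axis), as points with bars of 1 standard error from the fit to 6 libraries, and grey bars for the range with each library left out in turn. *Npas2* is at -0.67 and *Nr1d1* at -0.81 on the left, *Per1* at 0.79 on the right, and *Per2*, *Cry1* and *Nr1d2* have ranges on both sides of 0.

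Several clock genes differed widely between libraries of the same genotype, with *Per1* spread 2.71-fold within Apc1322T and 2.59-fold within ApcMin adenomas, and *Nr1d1* 2.84-fold and 1.55-fold. Apc1322T replicate 1 and ApcMin replicate 3 were singled out after their values were seen. Each was the lowest library of its genotype for *Arntl*, *Npas2*, *Nr1d1* and *Dbp* (4 of the 10 genes), and the highest for *Per1* and *Cry1* (2 of the 10). Over all tested genes these 2 libraries were both the lowest for 19.7% and both the highest for 20.8%. The median of the SDs within genotypes was 0.32 on the log2 scale for the clock genes, beside 0.22 for all tested genes, and 7 of the 10 lay above the latter. *Clock*, *Arntl* and *Cry1* did not.

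The clock genes did not all vary together. In both genotypes the library with the lowest *Dbp* also had the lowest *Nr1d1* and the highest *Per1*. As a description over the 6 libraries, which share their genotype in threes, *Dbp* had a Pearson correlation of 0.90 with *Nr1d1*, 0.77 with *Per2*, 0.68 with *Nr1d2*, 0.67 with *Npas2* and 0.67 with *Arntl*. It was 0.48 with *Clock* and 0.053 with *Per3*, and negative with *Cry1* (-0.71) and *Per1* (-0.83). Of 13482 genes of sufficient level (mean log2 CPM above 1) ranked by this correlation, *Nr1d1* was number 686, so that many genes outside the clock resembled *Dbp* more closely.

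**Figure D3:**
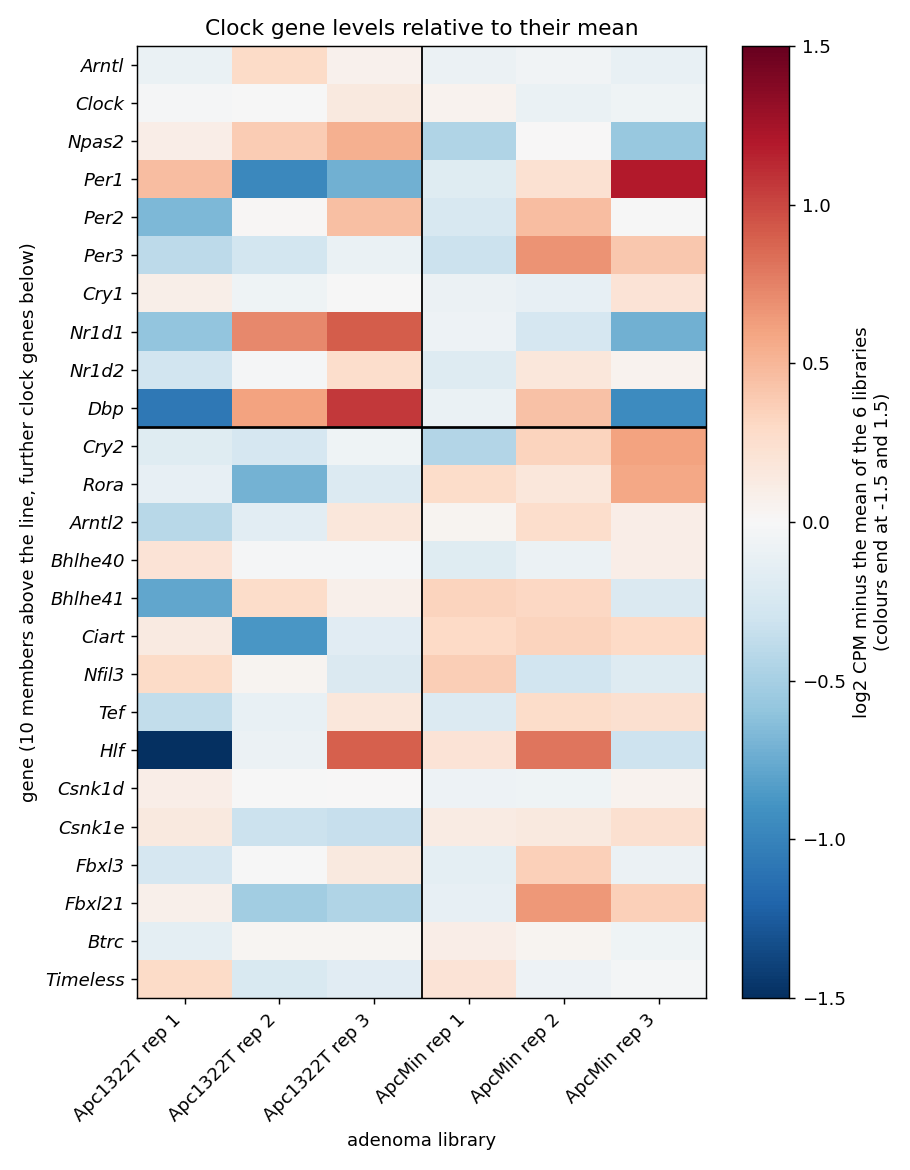
Log2 CPM minus the mean over 6 libraries for the 10 clock genes (above the line) and further clock genes (below), with genes as rows and the adenoma libraries as columns; red is above and blue below the mean. *Dbp* and *Nr1d1* are blue and *Per1* is red in Apc1322T replicate 1 and ApcMin replicate 3, while *Clock* is pale throughout.

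Genes with other roles in the loop were taken as a list of 16 from general knowledge, all of which were tested. None passed the test at an adjusted p under 0.01. By sign, 12 were higher and 4 lower in ApcMin adenomas, with a median log2 fold change of 0.22 beside 0.017 for all tested genes. For 2 of the 16 the libraries did not overlap, both higher in ApcMin adenomas, a pattern and direction found for 11.0% of all tested genes. *Rora*, which encodes a receptor that activates *Arntl* through the elements bound by the REV-ERBs, had a log2 CPM of 2.41, 1.82 and 2.33 in Apc1322T and of 2.80, 2.71 and 3.11 in ApcMin libraries. *Rora* had a log2 fold change of 0.68 with a standard error of 0.23 (edgeR, adjusted p = 0.288). *Ciart*, which encodes a repressor of the *Clock* and *Arntl* dimer, had 1.40, 0.39 and 1.09 in Apc1322T and at least 1.56 in each of the ApcMin libraries. For *Ciart* the log2 fold change was 0.56 and the standard error 0.31 (edgeR, adjusted p = 0.414).

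*Ciart* was also the clock gene least like *Arntl* over the 6 libraries, with a Pearson correlation of -0.97, which placed it 36th from the bottom of the 13482 genes. *Rora* had -0.87 with *Arntl* and *Per1* -0.82, while *Nr1d1* had 0.82. The D-box factors related to *Dbp* were not alike. *Hlf* had a log2 CPM of -0.86 in Apc1322T replicate 1 and 0.31 in ApcMin replicate 3, the lowest library of each genotype, against 0.54 to 1.52 in the other 4 libraries. *Tef* varied 1.56-fold between its lowest and highest library, and had a correlation of 0.37 with *Dbp*.

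By the same measure, the 5 genes most like *Dbp* outside the 10 were *Lrsam1*, *Sytl2*, *Mertk*, *Slc35e2* and *Me2*, with correlations of between 0.995 and 0.998. The 5 least like it were *Zfp330*, *Otub1*, *Chpf2*, *Fundc2* and *Pafah1b2*, from -0.992 to -0.998. For *Arntl* the 5 most alike were *Umad1*, *Dedd*, *Ptdss2*, *Gm26712* and *Alg6* (0.984 to 0.991), and the 5 least alike *Atp13a3*, *Fut11*, *Tarsl2*, *Erh* and *Ddx6* (-0.987 to -0.992). Several of these genes spread little, such as *Otub1*, whose log2 CPM differed by 0.25 between its lowest and highest library.

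Output genes of the clock were taken as a second list from general knowledge, of which 18 of 19 were tested, and *Cys1* had too few counts. None passed the test at an adjusted p under 0.01. By sign, 5 were higher and 13 lower in ApcMin adenomas (median log2 fold change -0.13), and 2 did not overlap, both lower (9.96% of all tested genes). Among these was *Nampt*, the rate-limiting enzyme of NAD salvage (log2 fold change -0.13, standard error 0.084). Of the transporters of this list, *Slc5a1* and *Slc15a1* had the same order of libraries as *Dbp* within each genotype. *Slc5a1*, which encodes the sodium-dependent glucose transporter, had a log2 CPM of 8.03, 9.56 and 10.19 in Apc1322T and of 8.91, 9.19 and 7.80 in ApcMin libraries. *Slc15a1*, the peptide transporter gene, had 5.82, 7.90 and 8.18 in Apc1322T and 6.79, 7.53 and 4.85 in ApcMin libraries. *Slc9a3*, which encodes a sodium and proton exchanger, was instead highest, within each genotype, in the library with the lowest *Dbp*. *Usp2*, which encodes a deubiquitinase, was low only in Apc1322T replicate 1, at 2.81 against 3.88 to 4.65 elsewhere. *Wee1*, a kinase gene of the cell cycle, varied little, from 4.45 to 4.72.

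The content of other cells and the state of the epithelium also differed between these libraries, and in such bulk samples fewer cells of a type and less RNA per cell cannot be told apart. All 8 epithelial markers were present, and 5 of the 8 (*Epcam*, *Cdh1*, *Krt8*, *Krt19* and *Cdx2*) did not overlap, each lower in ApcMin adenomas (9.96% of all tested genes). None of these markers passed the test at an adjusted p under 0.01. Of the 8, 5 (*Epcam*, *Cdh1*, *Vil1*, *Cdx1* and *Cdx2*) were lowest within their genotype in both Apc1322T replicate 1 and ApcMin replicate 3, as *Dbp* was. These 2 libraries were both the lowest for 19.7% of all tested genes and both the highest for 20.8%. *Krt8* and *Krt19* were lowest in Apc1322T replicate 1 and ApcMin replicate 1. *Krt18* was instead highest of its genotype in Apc1322T replicate 1 and ApcMin replicate 1. The summed level of the 8 was between 12255 and 14300 CPM in Apc1322T and between 10042 and 11562 CPM in ApcMin libraries. The 7 enterocyte markers summed to 15321, 25293 and 24155 CPM in Apc1322T replicates 1, 2 and 3 and to 8187, 18237 and 10263 CPM in ApcMin replicates 1, 2 and 3, and none of the 7 was at 0. Of these, 4 (*Apoa1*, *Fabp2*, *Lct* and *Sis*) were lowest in both Apc1322T replicate 1 and ApcMin replicate 3, as *Dbp* was. *Apoa4* and *Fabp1* were lowest in Apc1322T replicate 1 and ApcMin replicate 1. *Alpi* was lowest in Apc1322T replicate 3 and ApcMin replicate 2, and was highest of the ApcMin libraries in ApcMin replicate 3. *Lct*, the lactase gene, had a log2 CPM of 6.40, 9.07 and 9.59 in Apc1322T and of 6.29, 7.72 and 2.63 in ApcMin libraries. Of the 8 Wnt and stem cell markers of adenomas, 4 (*Lgr5*, *Sox9*, *Nkd1* and *Sp5*) were highest in both Apc1322T replicate 1 and ApcMin replicate 3. *Axin2*, *Ascl2*, *Cd44* and *Wif1* were also highest in Apc1322T replicate 1, but not in ApcMin replicate 3. Among the ApcMin libraries, *Ascl2* and *Cd44* were highest in replicate 1 and *Axin2* and *Wif1* in replicate 2. The part of these differences between libraries in the *Dbp* and *Nr1d1* values was not tested.

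All listed smooth muscle, fibroblast and endothelial markers were higher in ApcMin adenomas by sign, whereas neuron and glia markers went both ways. No marker of the lists in this paragraph passed the test at an adjusted p under 0.01. Lack of overlap with higher values in ApcMin adenomas was found for 11.0% of all tested genes. All 7 smooth muscle markers had a positive log2 fold change (summed 144 to 286 CPM in Apc1322T and 369 to 505 CPM in ApcMin libraries), and *Acta2*, *Actg2* and *Myl9* did not overlap. The same sign was found for all 6 fibroblast markers (604 to 1523 and 982 to 3304 CPM), with no overlap for *Lum* and *Pdgfra*, and for all 4 endothelial markers (78.0 to 120 and 120 to 170 CPM), with no overlap for *Cdh5*. Of 6 immune markers 5 were higher (48.8 to 62.6 and 60.2 to 112 CPM). The squamous markers (4 of 6 tested) summed to between 6.34 and 8.73 CPM in Apc1322T and between 33.7 and 45.7 CPM in ApcMin libraries. *Krt14*, *Krt4* and *Krt6a* did not overlap. Of the squamous markers, 1 had an adjusted p of 0.0485 in edgeR's test, the only tested gene below 0.05. Neuron and glia markers (28.8 to 32.8 and 24.5 to 34.8 CPM, 3 of 6 tested) overlapped between the genotypes. Of these 3, 1 was higher and 2 were lower in ApcMin adenomas. Pancreatic acinar markers (73.2 to 153 and 90.1 to 255 CPM, 2 of 6 tested) also overlapped. No listed marker was at 0 in all libraries. The part of these tissues in the values of *Npas2*, *Rora* and the other clock genes was not tested.

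Lists of genes that respond to signals known to act on *Per1* were compared library by library. Of the 10 glucocorticoid-responsive genes, 4 (*Fkbp5*, *Zbtb16*, *Mt1* and *Mt2*) were highest in both Apc1322T replicate 1 and ApcMin replicate 3, as *Per1* was. *Fkbp5*, which encodes a co-chaperone of the glucocorticoid receptor, had a log2 CPM of 5.75, 4.57 and 5.07 in Apc1322T and of 5.80, 5.71 and 7.01 in ApcMin libraries. Another 4 of the 10 (*Tsc22d3*, *Sgk1*, *Errfi1* and *Pdk4*) were instead lowest of the Apc1322T libraries in Apc1322T replicate 1. Of the 8 temperature-responsive genes, *Cirbp* and *Rbm3*, which encode RNA-binding proteins induced by cold, were highest in the same 2 libraries. *Cirbp* had a log2 CPM of 5.90, 4.75 and 4.90 in Apc1322T and of 5.13, 5.77 and 6.47 in ApcMin libraries, the same order of libraries within each genotype as *Per1*. Of the heat shock genes of this list, *Hspa1a*, *Hspa1b* and *Hsph1* were lowest in both, and *Dnajb1*, *Hsp90aa1* and *Hspa8* were not. Of the 11 immediate early genes, 6 (*Fos*, *Fosb*, *Junb*, *Egr1*, *Atf3* and *Zfp36*) were lowest in both. *Jun* and *Ier2* were instead highest of the Apc1322T libraries in Apc1322T replicate 1, and *Egr2*, *Nr4a1* and *Btg2* were not lowest in both. Over all tested genes, these 2 libraries were both the lowest for 19.7% and both the highest for 20.8%. None of the genes of these 3 lists passed the test at an adjusted p under 0.01, and their part in the *Per1* values was not tested.

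Of these 3 lists, the genes without overlap between the genotypes, which made up 21.0% of all tested genes, were 2 immediate early genes and 1 temperature-responsive gene. *Jun* (log2 fold change -0.30, standard error 0.11) and *Hspa1b* (-0.52, standard error 0.21) were lower and *Egr2* (0.57, standard error 0.33) was higher in ApcMin adenomas, with adjusted p of 0.312, 0.323 and 0.433 in edgeR's test. The median log2 fold change was -0.084 for the immediate early, 0.28 for the glucocorticoid-responsive and -0.073 for the temperature-responsive genes.

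**Figure D4:**
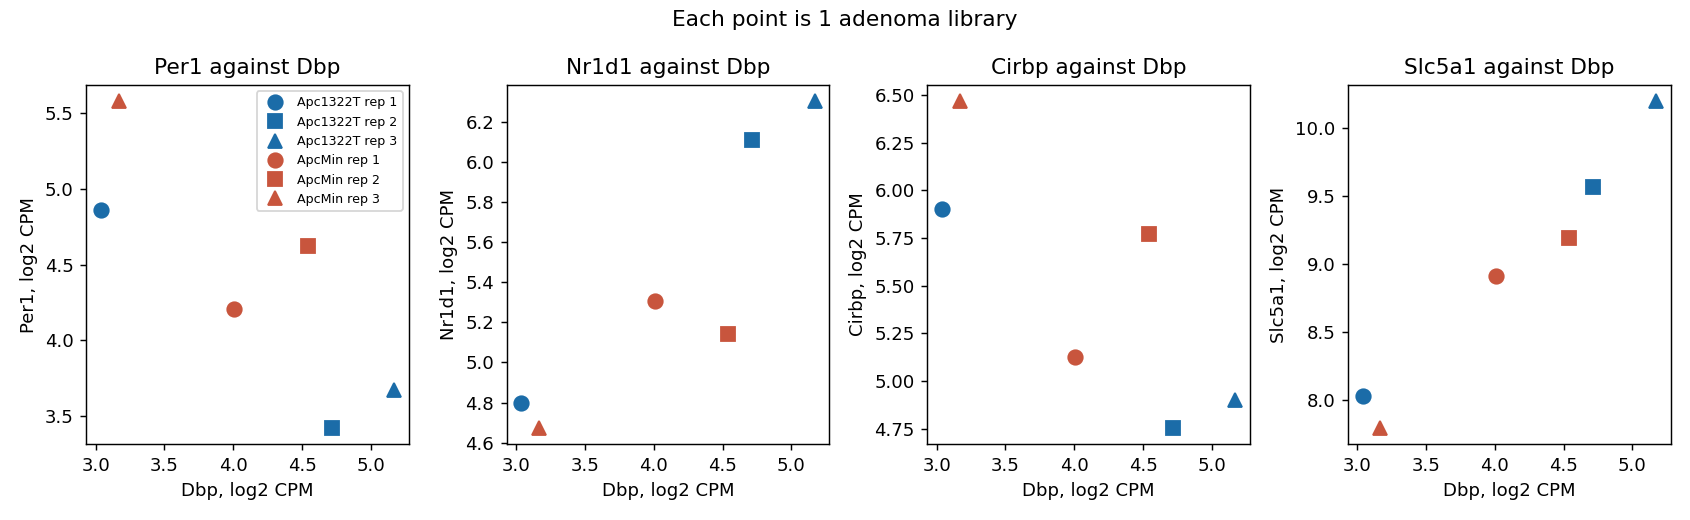
Log2 CPM of *Per1*, *Nr1d1*, *Cirbp* and *Slc5a1* (vertical axes) against *Dbp* (horizontal axes) in the 6 adenoma libraries, each a point, with Apc1322T in blue and ApcMin in red. The 2 libraries with *Dbp* near 3 have the lowest *Nr1d1* and *Slc5a1* and the highest *Per1* and *Cirbp*, and the axes do not start at 0.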

How the data were processed

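RNA-seq libraries of adenomas from 3 Apc1322T/+ and 3 ApcMin/+ mice were analysed, with genotype and replicate taken from the sample titles. Per the study's methods, stranded single-end reads were quantified by Salmon on GRCm38 transcripts. The table the authors deposited holds estimated counts summed per gene, which are not scaled for library size or gene length. Of these values, 31.1% are not whole numbers (tolerance 0.001), and they were rounded. The authors' own test used DESeq2. The strand setting of Salmon is not given in the sources used here.

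Symbols and exon lengths came from GENCODE M21 (GRCm38) by Ensembl identifier (34582 of 34866 genes matched). Genes were filtered with filterByExpr (minimum count 10, minimum total 15), normalised by TMM and tested in R 4.3.3 with edgeR 4.0.16 (quasi-likelihood fit, robust estimation). P-values were adjusted by Benjamini-Hochberg over all genes, with a threshold of 0.01. Standard errors are the log2 fold change divided by the square root of its F statistic. DESeq2 1.42.0 and limma-voom (limma 3.58.1) were alternatives. When 200 well-expressed genes were given a log2 difference of 1.5 to 3 in simulated counts, edgeR recovered 96% of them among 16280 genes tested. The simulated spread followed the trend over expression level, not the spread of each gene. The log2 fold changes of the clock genes, between -0.81 and 0.79, were smaller in size than those simulated. The recovery therefore does not apply to them. Totals were between 23132461 and 33518324 estimated counts, and 3 counts corresponded to at most 0.130 CPM, which covers counting error only. The p-values of edgeR set the difference between genotypes against the spread between these libraries, which edgeR moderates across genes.

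The members and the gene lists were chosen with earlier results of these data known. The genes named were the members, the genes of each list whose libraries did not overlap, and the 5 most and least correlated with *Dbp* and *Arntl*. Other genes of the lists were named after their values were seen. Promoter windows were those of RefSeq. Some genes of the lists entered the counts and are not reported here by name.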

Additional observations from a re-analysis of the deposited data

How the results depend on the processing

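None of the 10 clock genes passed an adjusted p under 0.01 under any alternative run. These were other normalizations, filters and tests, single libraries left out, and a replicate block. The count of 0 genes called among all tested genes was 194 with DESeq2's Wald test, 1 with no filter on low counts and 1 at an adjusted p under 0.05, and between 0 and 1 with each library left out (1 without ApcMin replicate 3). Without Apc1322T replicate 1, 205 genes had an adjusted p under 0.05, against 1 with all libraries, and 4117 an unadjusted p under 0.05. With limma-voom it was 0, with 2308 genes at an unadjusted p under 0.05, against 2495 with edgeR. The smallest adjusted p of any clock gene was 0.0620 (*Nr1d1*, without Apc1322T replicate 1). The log2 fold change of *Cry1*, -0.0027, was 0.054 with upper quartile normalization and 0.0046 with a minimum count of 30, and that of *Nr1d2* was -0.00078 with DESeq2's Wald test. With each library left out, the log2 fold change was between -0.11 and 0.056 for *Cry1*, between -0.14 and 0.39 for *Per2* and between -0.11 and 0.16 for *Nr1d2*. *Arntl*, *Clock*, *Npas2*, *Per1*, *Per3*, *Nr1d1* and *Dbp* kept their direction in every fit. The median over the 10 genes was between -0.12 and -0.018 when single libraries were left out, and 0.019 with upper quartile normalization.

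The labels number the replicates alike in both genotypes, but libraries with the same number are from different mice. The correlation of their deviations from the group means was -0.014, 0.16 and -0.29 for replicates 1, 2 and 3. With 3 libraries per genotype, these values cannot show whether the numbers pair the libraries. With the replicate number as a block, 0 genes were called, and the log2 fold change of *Npas2* was -0.68 (adjusted p = 0.356 in edgeR's test). Apc1322T replicate 1 and ApcMin replicate 3 deviated together, with a correlation of 0.33 over all tested genes. For Apc1322T replicate 3 and ApcMin replicate 2 it was 0.28. With 3 libraries per genotype, differences within the spread of *Per1*, *Nr1d1* and *Dbp* were not detectable.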
